A study of Mus musculus with 93 samples.

Results

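Genes of the lipid droplet coat and of lipolysis were followed in the livers of mice given a PPARα agonist, a synthetic triglyceride or the vehicle. The 8 genes are the coat proteins Plin2, Plin4 and Plin5, the droplet-enlarging proteins Cidea and Cidec, the lipase Pnpla2 and its inhibitors G0s2 and Hilpda. They were chosen by name, as all probesets whose platform symbol is one of these genes, but with earlier results of these data known. The shares of all genes set beside their counts are therefore descriptions and not a test. Of the 8 genes, 6 had a probeset, with 7 probesets in all (2 for Plin5), among 11412 probesets without controls. All 7 were among the 10432 probesets that varied over the arrays (an inter-quartile range of log2 signals of 0.25 or more), which were tested and which stand for 6278 genes. Cidea and Plin4 were not analysed here, since no probeset named for either was in the table.

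Each of 93 arrays held the liver RNA of 1 male mouse, from 48 PPARα −/− mice of the strain 129S4/SvJae and 45 WT mice of the strain 129S1/SvImJ, so that genotype and substrain cannot be told apart. Mice were fasted for 4 h, received 400 µl by gavage and were killed 6 h later. In a first run the groups were WY14643, fenofibrate, C18:1, C20:5, C22:6 and control, and in a later run C10:0, C18:2, C18:3 and a second control, with 5 mice per group in each genotype. The exceptions were WT WY14643, PPARα −/− C20:5, WT C18:2 and the later controls of both genotypes with 4 mice, and the first WT controls with 3. Controls received 0.5% carboxymethyl cellulose, in which the agonists WY14643 and fenofibrate were given at a concentration of 10 mg/ml, and each triglyceride held a single fatty acid. The labels give an age of 12 to 20 weeks for the first controls and the WY14643 mice and 8 to 24 weeks for all others. All mice had eaten a run-in diet with olive oil as its fat, and the knock-out is lifelong and in every cell. Each treatment was set against the control of its own run and genotype.

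Hepatocytes store triglycerides in droplets, whose surface carries perilipins such as Plin2 and Plin5. Pnpla2 (adipose triglyceride lipase) starts the breakdown of the stored fat, and G0s2 and Hilpda bind it and inhibit it. PPARα is a nuclear receptor that fatty acids and fibrates activate, and it binds DNA with RXR at PPAR response elements. In whole liver, fewer cells of a type and less RNA per cell cannot be told apart.

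A signal was called low when it lay under the 10th percentile, on its own array, of the 11412 probesets of the deposited table. This level is not a percentile of the whole array. It was 4.95 on the log2 scale on average and between 4.76 and 5.13 over all arrays. Where one of the groups compared had a mean under that level, the change is given as a bound ("at least"), and where both had, no change is given. Plin2, G0s2 and Pnpla2 were above the low level in every mouse. Plin5 was under it in 16 of 48 PPARα −/− mice by its probeset of higher signal, in 36 by the other, and in 0 of 45 WT mice by either. Cidec was under it in 47 of 48 PPARα −/− mice and in 23 of 45 WT mice, and Hilpda in 48 of 48 and 41 of 45. Levels are log2 signals, changes are differences of log2 signals with their standard error, and a change was called at an adjusted p under 0.05 (limma, Benjamini-Hochberg over all probesets).

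The 3 probesets of the targeted gene Ppara were lower in PPARα −/− mice but not at the low level. The clearest, 1457721_at, lay between 5.94 and 7.93 (median 7.03) in 48 PPARα −/− mice and between 8.10 and 9.52 (median 8.98) in 45 WT mice, without overlap. Of the hepatocyte markers, 7 of 8 had a probeset in the table. Alb, Apoa1, Apob, Ttr, Cps1 and Hnf4a were above the low level in every mouse, Alb at 13.68 or more, whereas Ass1 was under it in 68 of 93 mice. Of 8 adipocyte markers only Fabp4 was in the table, from 5.07 to 10.45. All 7 markers of Kupffer cells and macrophages were, with 3 of 5 markers of stellate cells and 2 of 4 of endothelial cells. Markers absent from the table may still be on the array. The median signal per array was 135 to 145 in the first run and 154 to 167 in the later run.

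**Figure D1:**
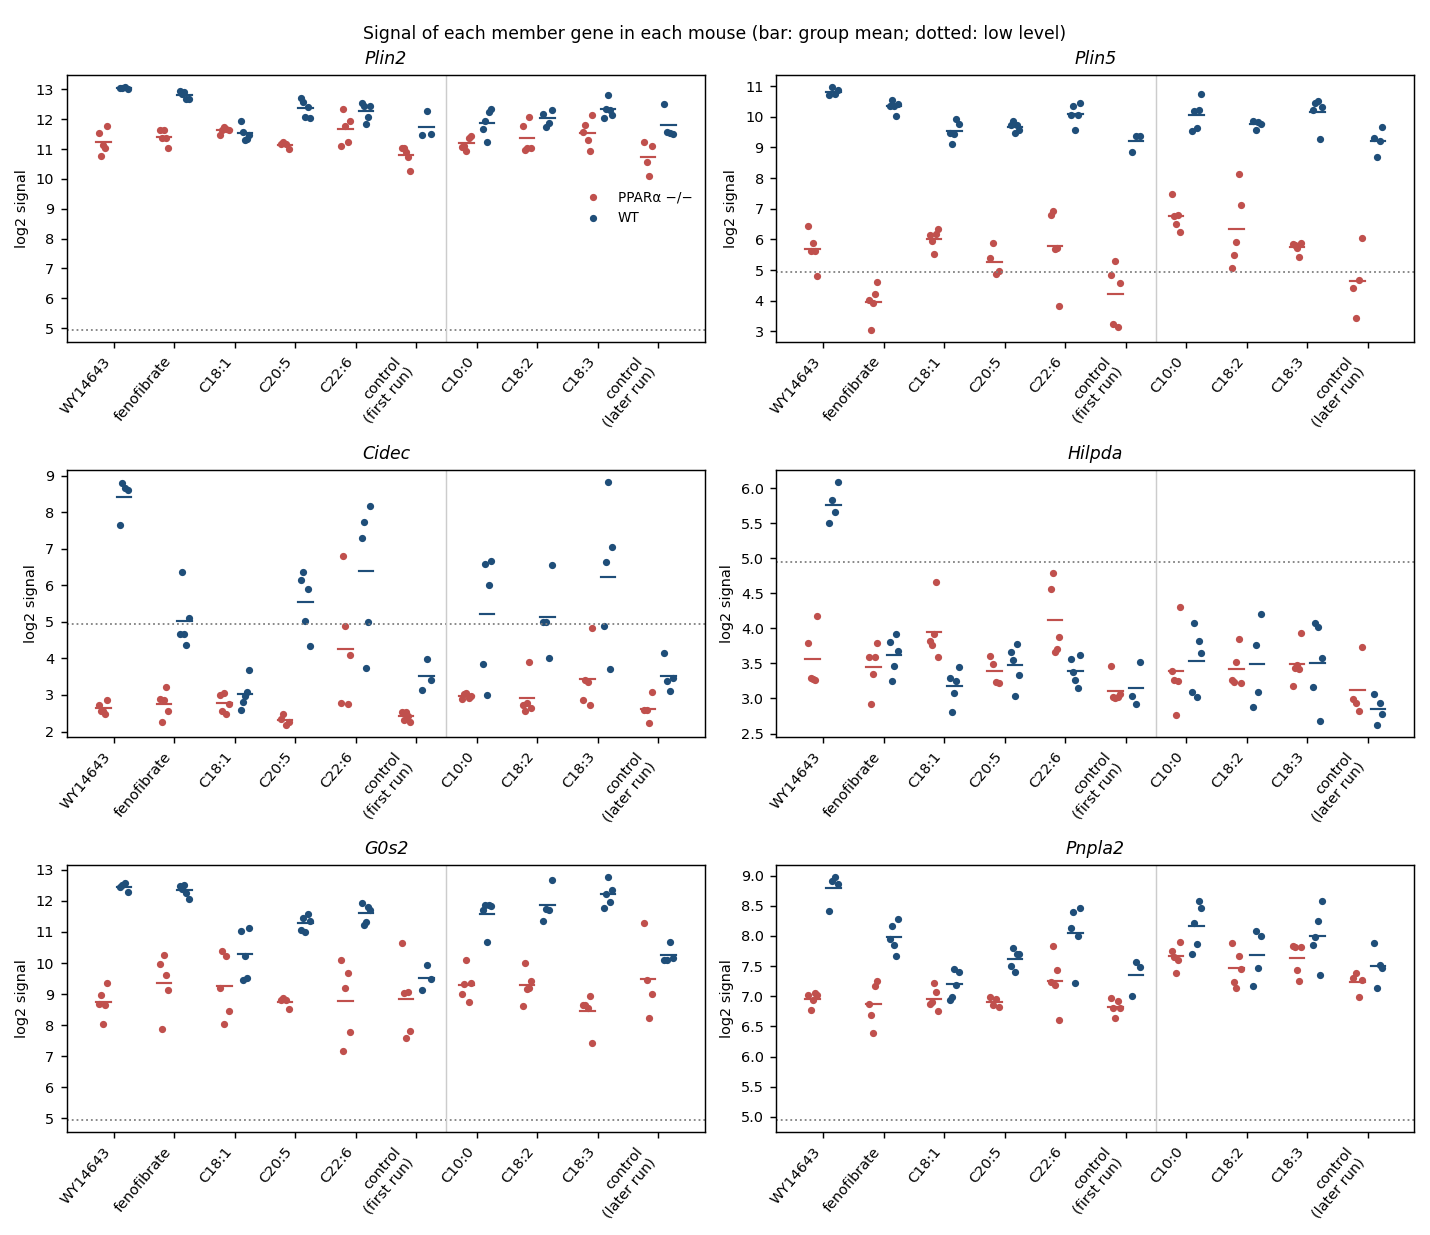
Log2 signal (vertical axis) of 6 genes in each of 93 mice by treatment (horizontal axis), PPARα −/− in red and WT in blue, with a bar at each group mean and a dotted line at the mean low level of 4.95; a grey line parts the runs. Plin5 was lower in every PPARα −/− mouse than in any WT mouse, and Hilpda rose above the low level only in the 4 WT mice given WY14643.

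The stretch of 250 bases before the start of transcription was read for the members from RefSeq (GRCm38.p6), of which 3 are shown because their stretches come closest to a PPAR response element. The motif AGGTCANAGGTCA, with at most 1 changed base in each AGGTCA and on either strand, was in 787 of 32851 promoters of the table (2.4%, over 250 bases before and 50 after the start) and in none of the promoters of the members. The capitals mark the window closest to the motif, which may lie on the opposite strand.
Plin2 promoter (chr4:86670060-86670309, minus strand): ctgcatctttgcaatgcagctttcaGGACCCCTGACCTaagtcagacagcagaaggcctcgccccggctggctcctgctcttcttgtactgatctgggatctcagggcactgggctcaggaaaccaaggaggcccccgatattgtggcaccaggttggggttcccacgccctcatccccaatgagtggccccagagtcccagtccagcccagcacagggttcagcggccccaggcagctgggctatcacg
Plin5 promoter (chr17:56117549-56117798, minus strand): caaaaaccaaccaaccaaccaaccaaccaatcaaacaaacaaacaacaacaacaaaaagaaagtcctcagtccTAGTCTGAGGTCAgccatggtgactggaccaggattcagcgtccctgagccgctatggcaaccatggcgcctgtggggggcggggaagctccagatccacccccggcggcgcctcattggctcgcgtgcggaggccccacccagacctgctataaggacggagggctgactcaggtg
Cidec promoter (chr6:113435761-113436010, minus strand): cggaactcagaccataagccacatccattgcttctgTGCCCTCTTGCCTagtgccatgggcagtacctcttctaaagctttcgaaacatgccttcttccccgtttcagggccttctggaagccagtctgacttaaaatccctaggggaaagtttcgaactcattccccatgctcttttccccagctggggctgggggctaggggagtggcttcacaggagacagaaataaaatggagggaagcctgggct
In Plin2 the window, read on the opposite strand as AGGTCAGGGGTCC, begins 225 bases before the start and has 2 changed bases, both in the second AGGTCA; a window with at most 2 changed bases stood before 3.24% of all starts. The closest windows of Plin5 and Cidec have 3 changed bases, and 21.3% of all starts had a window that close. Of Cidec and Plin5 a second start was listed, whose closest window has 4 changed bases. The closest windows of Hilpda and G0s2 have 4 changed bases and that of Pnpla2 has 5.

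In PPARα −/− mice WY14643 changed none of the 6 genes at the threshold (limma; 2 of 6 had an unadjusted p under 0.05, Plin2 and Plin5), where 0% of the 6278 genes tested rose, and in WT mice it raised all 6, where 12.1% of all genes rose. The increase in WT mice spanned coat proteins, lipase and inhibitors. G0s2 was 7.67 times as high and Pnpla2 2.72 times as high as in WT controls, and Cidec at least 11.4 times as high. With genes at their bound where one group was low and left out where both were, the median change was 0.29 over 4 members in PPARα −/− mice and 1.53 over 6 members in WT mice, beside medians over all genes, taken the same way, of 0.01 and −0.07.

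Plin2 is the perilipin that coats the droplets of most cells. In PPARα −/− mice given WY14643 Plin2 measured 11.54, 10.76, 11.13, 11.02 and 11.77, against 11.03, 11.03, 10.92, 10.72 and 10.28 in PPARα −/− controls, a change of 0.45 (SE 0.22, adjusted p = 0.76). These groups overlapped. In WT mice Plin2 measured 13.04, 13.06, 13.09 and 13.01 with WY14643, against 11.46, 12.28 and 11.50 in WT controls. All treated WT mice were above all WT controls, and they differed from each other by less than 0.1. The change was 1.31 (SE 0.26, adjusted p = 5.95e-05). The difference between the genotypes, −0.86 (SE 0.34), was not called (adjusted p = 0.07).

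Plin5 coats droplets in oxidative tissues and ties them to mitochondria. In PPARα −/− mice given WY14643 its probeset of higher signal, 1441915_s_at, measured 6.45, 5.63, 5.89, 5.62 and 4.80, against 4.85, 3.24, 5.30, 3.15 and 4.58 in PPARα −/− controls. These groups overlapped and their difference, at least 1.56-fold, was not called (adjusted p = 0.33). With array weights it was called (limma, adjusted p = 1.36e-05), as it was without PPARα −/− control 3 (adjusted p = 0.0441). Its unadjusted p was 0.000337 (limma). In WT mice this probeset measured 10.69, 10.98, 10.73 and 10.88 with WY14643 and 8.86, 9.37 and 9.37 in WT controls, a change of 1.62 (SE 0.47, adjusted p = 0.00555). The other probeset of Plin5, 1424937_at, changed by 1.84 in WT mice (SE 0.47, adjusted p = 0.00156). The difference between the genotypes was not called (adjusted p = 0.90), and no size is given for it since Plin5 was low in PPARα −/− controls.

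Cidec is known for bringing droplets together and enlarging them. In PPARα −/− mice Cidec was low in all 5 mice given WY14643 (2.47 to 2.86) and in all 5 controls (2.27 to 2.54). It measured 7.65, 8.79, 8.67 and 8.59 in the WT mice given WY14643. WT controls measured 3.14, 3.99 and 3.41, all low. The rise was at least 11.4-fold (adjusted p = 1.11e-07). The difference between the genotypes was called (adjusted p = 0.00013).

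Hilpda rose above the low level in WY14643-treated WT mice alone. In PPARα −/− mice given WY14643 Hilpda lay between 3.26 and 4.18, against 3.01 to 3.46 in PPARα −/− controls. The 4 WT mice given WY14643 measured 5.50, 5.82, 5.65 and 6.09, and the WT controls 3.03, 2.92 and 3.52. These 4 mice were the only ones of the series above the low level, and the rise was at least 1.80-fold (adjusted p = 1.04e-11). The difference between the genotypes was called (adjusted p = 7.01e-06).

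G0s2 is the other inhibitor of Pnpla2. In PPARα −/− mice given WY14643 it measured 8.69, 8.96, 8.03, 8.65 and 9.35, against 10.64, 9.05, 7.58, 9.06 and 7.82 in PPARα −/− controls. The control values spanned more than 3 on the log2 scale and enclosed those of the treated mice. The change was −0.09 (SE 0.44). In WT mice it measured 12.46, 12.52, 12.58 and 12.30 with WY14643 and 9.13, 9.94 and 9.49 in WT controls, a change of 2.94 (SE 0.53, adjusted p = 7.75e-06). The difference between the genotypes was −3.03 (SE 0.69, adjusted p = 0.000693).

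Pnpla2, the lipase itself, measured in PPARα −/− mice 6.77 to 7.05 (median 7.02) with WY14643 and 6.65 to 6.97 (median 6.80) in controls, a change of 0.13 (SE 0.19). In WT mice it measured 8.41, 8.91, 8.97 and 8.86 with WY14643 and 7.00, 7.56 and 7.48 in WT controls, a change of 1.44 (SE 0.23, adjusted p = 5.28e-07). The difference between the genotypes was −1.31 (SE 0.30, adjusted p = 0.000689). Thus 4 of 6 members had a change that was called lower in PPARα −/− mice, where 7.79% of all genes had. The 6 rises in WT mice and these 4 differences kept their calls when any mouse was left out and under every alternative run. The adipocyte marker Fabp4 rose as well with WY14643 in WT mice, where its signal lay between 160 and 284, against 39.7 to 69.9 in WT controls. The paper names Fabp4 among the genes that WY14643 raised out of proportion when set against C22:6 in WT liver. Of the 7 hepatocyte markers, Cps1 and Ass1 were called lower with both agonists in WT mice, Cps1 by −0.52 (SE 0.08) with WY14643 and by −0.40 (SE 0.08) with fenofibrate and Ass1 between groups that were both low. The summed signal of the 7 lay between 49280 and 53150 with WY14643 and between 51890 and 52970 with fenofibrate, against 53730 to 54780 in WT controls. The part of these markers in the results was not tested.

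Fenofibrate, at the same nominal concentration, raised G0s2, Plin2 and Pnpla2 in WT mice (3 of 6 genes, where 7.15% of all genes rose). G0s2 measured 12.49, 12.38, 12.51, 12.26 and 12.07 in the WT mice given fenofibrate, against 9.13, 9.94 and 9.49 in WT controls, a change of 2.82 (SE 0.51, adjusted p = 2.12e-05). Plin2 measured 12.96, 12.86, 12.92, 12.70 and 12.67 with fenofibrate, above all WT controls, a change of 1.08 (SE 0.25, adjusted p = 0.00116). Pnpla2 measured 7.95, 8.17, 7.84, 7.67 and 8.29 and changed by 0.64 (SE 0.22, adjusted p = 0.0393). The call for Pnpla2 rested on a narrow margin: it was lost without any one of 5 of the 8 mice (fenofibrate mice 1, 2 and 5 and WT controls 1 and 3, with changes of 0.46 to 0.70) and in a fit of only these groups, where the change was 0.64 (adjusted p = 0.07). Plin5 lay between 10.04 and 10.54 (median 10.36), above all WT controls, but its change of 1.14 (SE 0.45) was not called (adjusted p = 0.08). In a fit of only these groups Plin5 was called (limma, adjusted p = 0.00434). It was also called with 16 added to each signal (adjusted p = 0.0154) and with array weights (adjusted p = 0.0234). Cidec measured 4.66, 6.35, 4.66, 4.35 and 5.11 (adjusted p = 0.15) and Hilpda stayed low in all 5 mice, between 3.25 and 3.93.

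Set directly against each other in WT mice, WY14643 exceeded fenofibrate for 3 of 6 genes, where 1.1% of all genes were higher with WY14643. Cidec was higher with WY14643 by 3.40 (SE 0.64, adjusted p = 0.000503), and its values did not overlap. Hilpda was at least 1.80-fold higher with WY14643 (adjusted p = 3.37e-09) and Pnpla2 higher by 0.81 (SE 0.20, adjusted p = 0.017). The Pnpla2 call was lost without WY14643 mouse 2, 3 or 4 or fenofibrate mouse 3 or 4, with differences of 0.73 to 0.78. For G0s2 the difference between WY14643 and fenofibrate was 0.12 (95% interval −0.81 to 1.05), for Plin2 0.23 (−0.23 to 0.69) and for Plin5 0.48 (−0.34 to 1.30), none of them called. In PPARα −/− mice 1 of 6 genes, Plin5, was called higher with WY14643 than with fenofibrate (0.112% of all genes were), by at least 1.64-fold (adjusted p = 0.0485); the call was lost in a fit of only these groups (adjusted p = 0.20), without the variation filter (adjusted p = 0.05), without the C10:0 arrays, with median centring (both adjusted p = 0.07) or with 16 added to each signal (adjusted p = 0.13), and without any one of 8 of the 10 mice, all but WY14643 mouse 5 and fenofibrate mouse 5. Against their controls, in PPARα −/− mice none of the 6 genes was called with fenofibrate (1 of 6, Plin2, at an unadjusted p under 0.05; limma), where 0.112% of all genes rose. The change of G0s2 was 0.54 (SE 0.44) in PPARα −/− mice, which differed from that of 2.82 in WT mice by −2.28 (SE 0.67, adjusted p = 0.0216), the only one of 6 such differences called, where 4.08% of all genes had a lower change in PPARα −/− mice; this call was lost in a fit of only these groups and without WT control 1, PPARα −/− control 1 or PPARα −/− fenofibrate mouse 2, with differences of −1.83 to −2.28 and adjusted p of 0.06 to 0.10.

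**Figure D2:**
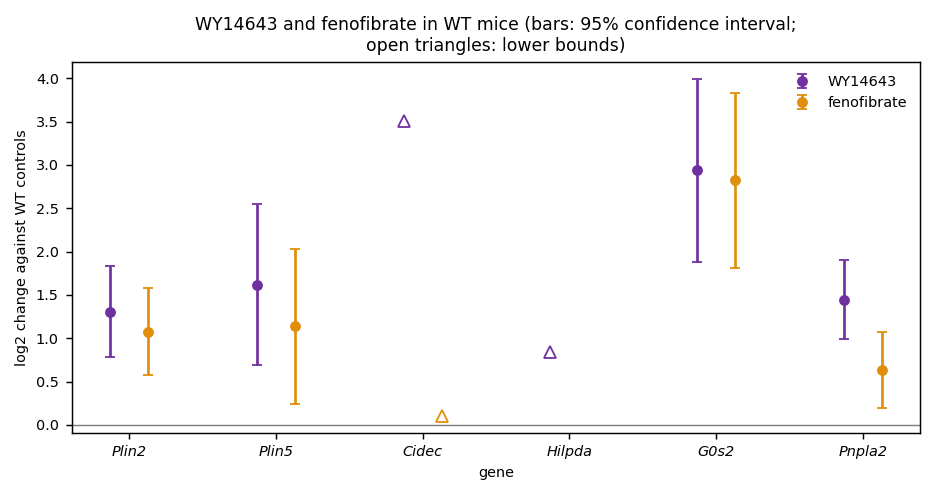
Log2 change of 6 genes (horizontal axis) in WT mice given WY14643 (4 mice, purple) or fenofibrate (5 mice, orange) against 3 WT controls. Circles are fitted changes with their 95% confidence interval and open triangles lower bounds against the low level; Hilpda with fenofibrate was low in both groups and is not drawn. The intervals of G0s2 nearly coincide (changes of 2.94 and 2.82), whereas Cidec has a bound of 3.50 with WY14643 and 0.11 with fenofibrate.

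Among the triglycerides in WT mice, C22:6 raised Cidec, G0s2 and Pnpla2 and C18:3 raised Cidec and G0s2. This was 3 of 6 genes with C22:6, where 3.54% of all genes rose, and 2 of 6 with C18:3, where 2.36% rose. None of the 6 was called with C20:5, C10:0 or C18:2, where 0.51%, 1.07% and 0.35% of all genes rose, although 3, 5 and 3 of 6 had an unadjusted p under 0.05 (limma). With C18:1 none was called, none reached an unadjusted p of 0.05, and 0% of all genes rose. With Cidec at its bound and Hilpda, low in both groups, left out, the median change of 5 members was 0.62 with C20:5, 0.89 with C22:6, 0.66 with C10:0, 0.27 with C18:2 and 0.94 with C18:3. With C18:1, where Cidec was low in both groups too, that of 4 members was 0.09. The medians over all genes, taken the same way, lay between −0.03 and 0.00.

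G0s2 lay above all controls of the same run in WT mice given C20:5, C22:6, C18:2 or C18:3, and was called with C22:6 and C18:3. It measured 11.95, 11.24, 11.31, 11.81 and 11.70 in WT mice given C22:6, against 9.13, 9.94 and 9.49 in WT controls, a change of 2.08 (SE 0.51, adjusted p = 0.00535). In the later run it measured 11.77, 12.24, 12.77, 11.96 and 12.37 in WT mice given C18:3, against 10.11, 10.11, 10.67 and 10.15 in WT controls, a change of 1.96 (SE 0.47, adjusted p = 0.00624). With C20:5 (10.99 to 11.59, median 11.35) and C18:2 (11.36 to 12.67, median 11.72) the changes were 1.77 and 1.61 and were not called (adjusted p = 0.10 and 0.12). In a fit of only the groups compared G0s2 was called with C20:5 (limma, adjusted p = 0.029). With array weights it was called with both (adjusted p = 0.00425 and 0.0117). In WT mice of the first run the mean level of G0s2 was highest with WY14643 (12.46), then fenofibrate (12.34), C22:6 (11.60), C20:5 (11.29), C18:1 (10.28) and control (9.52). The ranges of neighbours in this order overlapped except for fenofibrate and C22:6.

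Cidec differed widely between mice of the same group. It measured 7.28, 7.73, 3.73, 5.00 and 8.15 in WT mice given C22:6, against 3.14, 3.99 and 3.41 in WT controls, and 4.89, 6.64, 8.83, 3.70 and 7.06 in WT mice given C18:3, against 4.16, 3.39, 3.11 and 3.45 in WT controls of that run. In each of these groups 1 mouse lay within the range of its controls. The rise was at least 2.75-fold with C22:6 (adjusted p = 0.00546) and at least 2.55-fold with C18:3 (adjusted p = 0.00643). Both calls were lost in a fit of only the groups compared (adjusted p = 0.20 and 0.24), and that for C18:3 without C18:3 mouse 3 (adjusted p = 0.09). With C20:5 all 5 WT mice, 4.34 to 6.36 (median 5.90), exceeded the controls, but the difference was not called (adjusted p = 0.23).

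In 3 groups of WT mice the mouse with the lowest Cidec was low in other members too. WT C22:6 mouse 3 had the lowest Cidec (3.73), Pnpla2 (7.23), Plin5 (9.56) and Plin2 (11.83) of its group, but not the lowest G0s2 (11.31). WT C18:3 mouse 4 had the lowest Cidec (3.70), Pnpla2 (7.35), Plin5 (9.28) and Hilpda (2.68), and WT C10:0 mouse 3 the lowest Cidec (3.00), Plin2 (11.23) and G0s2 (10.67). Over the 48 PPARα −/− mice, deviations from the group means of Cidec and Pnpla2 had a Pearson r of 0.35, those of Cidec and Plin5 0.27 and those of Cidec and G0s2 −0.37. Over the 45 WT mice these were 0.75, 0.72 and 0.44. For Cidec and Plin2 r was 0.66 in PPARα −/− and 0.65 in WT mice. For Cidec and Hilpda it was 0.38 and 0.63. These are descriptions over mice whose arrays were normalized together, and in PPARα −/− mice Cidec was nearly always low.

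**Figure D3:**
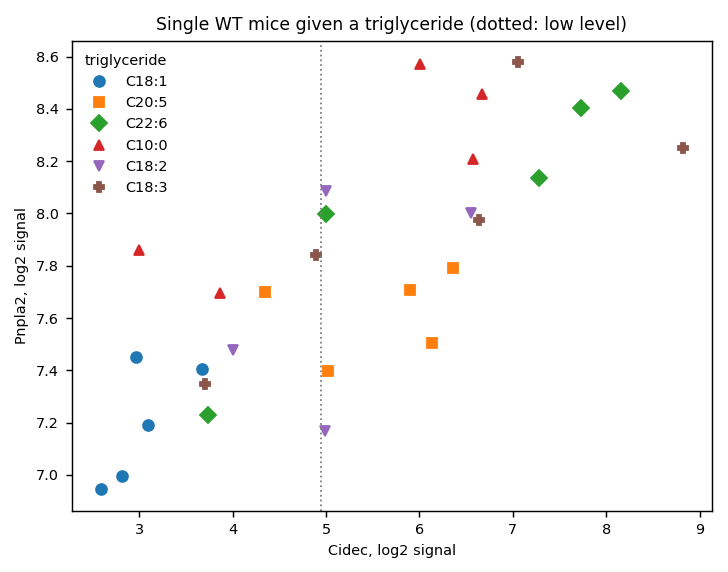
Log2 signal of Pnpla2 (vertical axis) against that of Cidec (horizontal axis) in the 29 WT mice given a triglyceride, with a colour and symbol per fatty acid and a dotted line at the low level of 4.95. All 5 mice given C18:1 lie at the lower left, with Cidec at 3.68 or less, while mice given C22:6 or C18:3 run along the whole range, from 3.73 to 8.15 and from 3.70 to 8.83.

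Pnpla2 measured 8.14, 8.40, 7.23, 8.00 and 8.47 in WT mice given C22:6, against 7.00, 7.56 and 7.48 in WT controls, a change of 0.70 (SE 0.22, adjusted p = 0.0398). This call was lost without any one of 7 of the 8 mice, all but C22:6 mouse 3, and in a fit of only these groups (adjusted p = 0.28), with changes of 0.52 to 0.81. Plin2 and Plin5 were not called with any triglyceride in WT mice. The change of Plin2 lay between −0.21 with C18:1 and 0.62 with C20:5, and that of Plin5 between 0.33 with C18:1 and 0.94 with C18:3. Hilpda was low in every WT mouse given a triglyceride.

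Other changes in WT mice were not called. Plin5 measured 10.06, 10.36, 9.56, 10.06 and 10.45 in WT mice given C22:6 and 9.74, 9.86, 9.46, 9.74 and 9.56 in WT mice given C20:5, against 8.86, 9.37 and 9.37 in WT controls. All 10 mice were above the 3 controls, with changes of 0.89 (SE 0.45, adjusted p = 0.27) for C22:6 and 0.47 (SE 0.45, adjusted p = 0.87) for C20:5. Plin2 measured 12.71, 12.58, 12.06, 12.42 and 12.04 in WT mice given C20:5, against 11.46, 12.28 and 11.50 in WT controls. Here WT control 2 lay among the treated mice, and the change was 0.62 (SE 0.25, adjusted p = 0.36). Pnpla2 measured 7.70, 8.21, 7.86, 8.57 and 8.46 in WT mice given C10:0, against 7.88, 7.14, 7.52 and 7.47 in WT controls, with overlap, a change of 0.66 (SE 0.20, adjusted p = 0.07). With C10:0 G0s2 measured 11.70, 11.86, 10.67, 11.87 and 11.85 in WT mice, against 10.11, 10.11, 10.67 and 10.15 in WT controls. Mouse 3 was level with the highest control, and the change of 1.33 (SE 0.47) was not called (adjusted p = 0.13).

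With C18:1 no member was called in WT mice. Cidec measured 2.59, 2.81, 2.97, 3.09 and 3.68 in WT mice given C18:1, all low, and Pnpla2 6.94, 6.99, 7.45, 7.19 and 7.41, a change of −0.15 (SE 0.22, 95% interval −0.59 to 0.29). G0s2 measured 11.03, 9.46, 10.24, 9.52 and 11.14, a change of 0.76 (SE 0.51, 95% interval −0.25 to 1.76). Of these 5 mice, 3 had more G0s2 than any WT control (9.13 to 9.94).

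Triglycerides of the same run were compared directly in 6 pairs per genotype. In WT mice C22:6 exceeded C18:1 for 3 of 6 genes, where 3.15% of all genes were higher, and C20:5 exceeded C18:1 for 2 of 6, where 1.05% were. Cidec was at least 2.73-fold higher with C22:6 than with C18:1 (adjusted p = 0.000109) and at least 1.54-fold higher with C20:5 than with C18:1 (adjusted p = 0.0141), and the values did not overlap in either pair. Pnpla2 was higher with C22:6 than with C18:1 by 0.85 (SE 0.19, adjusted p = 0.00226). Plin2 was higher than with C18:1 by 0.73 (SE 0.22, adjusted p = 0.0349) with C22:6 and by 0.83 (SE 0.22, adjusted p = 0.0309) with C20:5. With C22:6 the Plin2 call was lost without C22:6 mouse 1, 2 or 5 or C18:1 mouse 2, 3, 4 or 5 (0.66 to 0.74), and with C20:5 without C20:5 mouse 1, 2 or 4 or C18:1 mouse 2, 3 or 4 (0.74 to 0.84). The Cidec call with C20:5 was lost without C20:5 mouse 1 or 2 (adjusted p = 0.07) and with 16 added to each signal (adjusted p = 0.07). In fits of only the groups compared, the calls of Cidec (adjusted p = 0.05), Pnpla2 (adjusted p = 0.08) and Plin2 (adjusted p = 0.05) with C22:6 and of Plin2 with C20:5 (adjusted p = 0.07) were lost. G0s2 was higher with C22:6 than with C18:1 in every mouse, 11.24 to 11.95 (median 11.70) against 9.46 to 11.14 (median 10.24), but the difference of 1.32 (SE 0.44) was not called (adjusted p = 0.07). C22:6 and C20:5, both polyunsaturated, differed in none of the 6 genes at the threshold, with 1 (Pnpla2) at an unadjusted p under 0.05 (limma) and a difference in G0s2 of 0.31 (95% interval −0.56 to 1.18). The pairs of C10:0, C18:2 and C18:3 gave no call in WT mice, and the triglyceride pairs gave none in PPARα −/− mice, where 1.23% of all genes were higher with C22:6 than with C20:5 and 0.0637% higher with C20:5 than with C18:1. With the pair of agonists, 84 such comparisons of a gene were made, of which 9 were called.

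**Figure D4:**
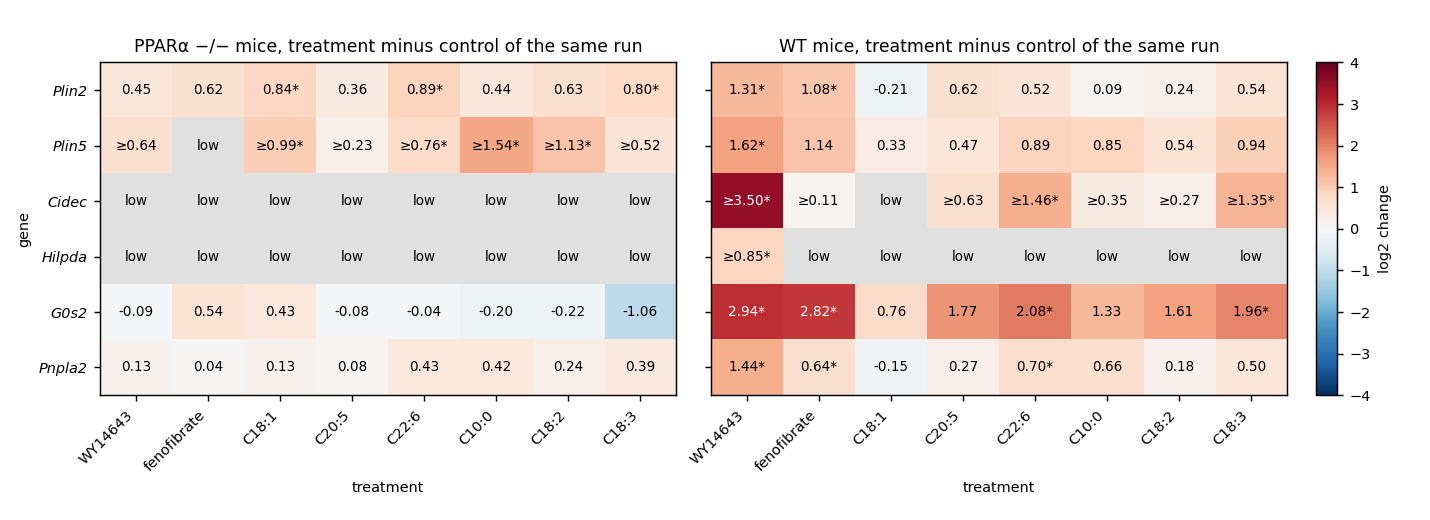
Log2 change against controls of the same run for 6 genes (vertical axis) and 8 treatments (horizontal axis), PPARα −/− mice left and WT mice right. An asterisk marks an adjusted p under 0.05, the sign ≥ a lower bound where the controls were low, and grey cells groups that were both low, called or not. G0s2 is coloured in WT mice with every treatment, up to 2.94 with WY14643, and lies between −1.06 and 0.54 in PPARα −/− mice, where the marked changes are those of Plin2 and Plin5.

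In PPARα −/− mice the coat proteins Plin2 and Plin5 rose with triglycerides, and Hilpda and Cidec were called higher only between groups that were both low. With C22:6, 4 of 6 genes were called (6.67% of all genes rose), with C18:1 3 of 6 (1.04%), and 1 of 6 with C10:0 (3.2%), C18:2 (0.175%) and C18:3 (5.43%) alike; with C20:5 none was (1 of 6, Plin5, at an unadjusted p under 0.05; limma), where 0.0159% rose. Of these 10 calls, 3 (Hilpda with C18:1 and C22:6 and Cidec with C22:6) were between groups that were both low, and no change is given for them. Plin2 measured 11.49, 11.64, 11.73, 11.68 and 11.63 in PPARα −/− mice given C18:1 and 11.11, 12.34, 11.76, 11.25 and 11.95 in those given C22:6, against 11.03, 11.03, 10.92, 10.72 and 10.28 in PPARα −/− controls. All treated mice were above all controls. The changes were 0.84 (SE 0.22, adjusted p = 0.0349) with C18:1 and 0.89 (SE 0.22, adjusted p = 0.0042) with C22:6. With C18:3 Plin2 measured 11.56, 11.80, 11.31, 10.92 and 12.15, against 11.24, 10.58, 10.09 and 11.09 in PPARα −/− controls, a change of 0.80 (SE 0.23, adjusted p = 0.0173).

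Plin5 measured 6.14, 5.95, 5.53, 6.19 and 6.34 in PPARα −/− mice given C18:1, against 4.85, 3.24, 5.30, 3.15 and 4.58 in PPARα −/− controls. The rise was at least 1.99-fold (adjusted p = 0.00686). In the later run it measured 7.47, 6.76, 6.52, 6.80 and 6.23 with C10:0, against 4.42, 3.44, 4.67 and 6.04 in PPARα −/− controls, a rise of at least 2.91-fold (adjusted p = 0.000666). In both comparisons every treated mouse was above every control. The rises with C22:6 (at least 1.70-fold, adjusted p = 0.0042) and C18:2 (at least 2.19-fold, adjusted p = 0.0469) had overlapping values. Probeset 1424937_at of Plin5 was called with C22:6 (adjusted p = 0.0196), but between groups that were both low. It was also called with C10:0 (adjusted p = 0.0367) and not with C18:1 (adjusted p = 0.09) or C18:2 (adjusted p = 0.23).

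Hilpda measured 4.56, 4.79, 3.67, 3.71 and 3.88 in PPARα −/− mice given C22:6 and 3.82, 3.77, 3.92, 4.66 and 3.59 in those given C18:1, against 3.46, 3.02, 3.01, 3.02 and 3.06 in PPARα −/− controls, all low. Cidec measured 2.79, 6.79, 4.90, 2.76 and 4.10 in PPARα −/− mice given C22:6, against 2.53, 2.32, 2.54, 2.43 and 2.27 in PPARα −/− controls. Mouse 2 was the only PPARα −/− mouse of the series with Cidec above the low level. G0s2 and Pnpla2 were not called with any treatment in PPARα −/− mice. The changes of G0s2 lay between −1.06 with C18:3 and 0.54 with fenofibrate, and those of Pnpla2 between 0.04 with fenofibrate and 0.43 with C22:6.

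These calls in PPARα −/− mice relied on the spread shared by all arrays: in fits of only the groups compared, 1 of the 10 kept its call (Plin2 with C18:1). Single mice decided others. Plin2 with C18:1 lost its call without treated mouse 3, 4 or 5 or control 4 or 5, with changes of 0.71 to 0.84. Plin2 with C18:3 lost it without treated mouse 2 or 5 or control 2 or 3 (0.58 to 0.74). Plin5 with C18:2 lost it without treated mouse 4 or 5 or control 1, 2 or 3 (adjusted p of 0.06 to 0.33), with quantile normalization (adjusted p = 0.07) and without the variation filter (adjusted p = 0.05). Cidec with C22:6 lost it without treated mouse 2 or 3 or control 1, 2 or 4 (adjusted p of 0.05 to 0.24), and Hilpda with C18:1 without any one of 9 of the 10 mice, all but treated mouse 2 (adjusted p of 0.05 to 0.19). Markers of other cells moved in the same groups. With C22:6 in PPARα −/− mice 5 of 7 markers of Kupffer cells and macrophages and Fabp4 rose, each with values that overlapped those of controls. Of the 5, Cd68 was under the low level in 85 of all 93 mice and rose by at least 1.32-fold. Marco, which was not called, was under it in 90. The summed signal of the 7 lay between 1687 and 2914, against 324 to 2270 in PPARα −/− controls, and Fabp4 between 97.9 and 566, against 33.6 to 156. With C18:1 1 of the 7, Clec4f, rose (sums of 1674 to 2283). With C18:3 the endothelial marker Stab2, 1 of 2 tested, rose by 0.43 (SE 0.13) and the hepatocyte marker Hnf4a by 0.72 (SE 0.14), and with C22:6 the hepatocyte marker Ass1 was at least 1.12-fold lower. The summed signal of both endothelial markers lay between 765 and 896 with C18:3, against 602 to 689 in PPARα −/− controls. The part of these markers in the rises of Plin2 and Plin5 was not tested.

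Whether a triglyceride acted differently in the genotypes was tested as a difference of changes. This was called for 1 of 6 genes with C18:3, where 0.653% of all genes had a lower change in PPARα −/− mice, and for none with C18:1, C20:5, C22:6, C10:0 or C18:2, where 0%, 0.0159%, 2.48%, 0% and 0% of all genes had one and 3, 2, 2, 2 and 1 of 6 had an unadjusted p under 0.05 in either direction (limma). The gene was G0s2, whose change with C18:3 was −1.06 (SE 0.47) in PPARα −/− mice and 1.96 (SE 0.47) in WT mice, a difference of −3.02 (SE 0.66, adjusted p = 0.00852). With C18:3 it measured 8.65, 8.64, 8.55, 8.95 and 7.42 in PPARα −/− mice, against 11.31, 9.46, 8.23 and 9.00 in PPARα −/− controls, which spread over more than 3. In a fit of only these groups the call was lost (adjusted p = 0.08). The difference of G0s2 with C22:6 was −2.12 (SE 0.67, adjusted p = 0.06). Plin2 and Plin5, which rose with C18:1 in PPARα −/− mice and were not called in WT mice, did not differ between the genotypes at the threshold with C18:1 (adjusted p = 0.41 and 0.54). The difference of Plin2 was 1.05 (SE 0.33), and that of Plin5 has no size since PPARα −/− controls were low.

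Without treatment, PPARα −/− livers had far less Plin5 and less Plin2 than WT livers. These 2 of 6 genes were called in both runs, where 5.4% (first run) and 4.32% (later run) of all genes were lower in PPARα −/− controls. Plin5 measured 4.85, 3.24, 5.30, 3.15 and 4.58 in PPARα −/− controls of the first run, against 8.86, 9.37 and 9.37 in WT controls. In the later run it measured 4.42, 3.44, 4.67 and 6.04 in PPARα −/− controls, against 9.32, 8.68, 9.20 and 9.67 in WT controls. It was at least 17.9-fold lower in PPARα −/− controls of the first run (adjusted p = 7.19e-15) and at least 16.03-fold lower in those of the later run (adjusted p = 5.74e-14), and by probeset 1424937_at at least 8.42-fold and 8.48-fold lower. Plin2 was lower in PPARα −/− controls by −0.95 (SE 0.25, adjusted p = 0.00745) in the first and by −1.04 (SE 0.24, adjusted p = 0.00191) in the later run, without overlap in either. Without WT control 2 the first of these was not called (−0.68, adjusted p = 0.17), and in fits of only the groups compared neither was. Cidec, G0s2, Hilpda and Pnpla2 were not called between controls. Stab2 was higher in PPARα −/− controls of the first run by 0.45 (SE 0.15), with endothelial sums of 388 to 552 in PPARα −/− controls and 276 to 409 in WT controls, and its part was not tested. The difference of Pnpla2 was −0.52 (95% interval −0.96 to −0.08) in the first and −0.26 (95% interval −0.69 to 0.16) in the later run.

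Of 30 other genes of lipid droplets and lipolysis, 21 were tested. With WY14643 in WT mice 11 rose and 1 fell, where 12.1% of all genes rose and 16.5% fell, and with fenofibrate 7 rose and 1 fell, where 7.15% rose and 7.52% fell. With C22:6 5 rose (3.54% of all genes), with C18:3 2 (2.36%) and with C20:5 1 (0.51%), none fell, and with C18:1, C10:0 and C18:2 none was called. With genes at their bound or left out as above, their median change with WY14643 was 0.04 over 19 genes in PPARα −/− mice and 0.29 over 20 in WT mice, beside 0.01 and −0.07 over all genes. The largest change was that of Mogat1, which makes diacylglycerol, but its level with WY14643 (4.95) was scarcely above the low level and the bound was at least 1.02-fold (adjusted p = 2.44e-19). Fitm2, which takes part in the budding of droplets, rose by 2.22 (SE 0.20, adjusted p = 4.02e-15) with WY14643 and by 1.69 (SE 0.19) with fenofibrate. Plin3, a perilipin that also occurs in the cytosol, fell by 1.65 (SE 0.28, adjusted p = 2.4e-06) with WY14643 and by 1.22 (SE 0.27, adjusted p = 0.000501) with fenofibrate, unlike Plin2 and Plin5. The carboxylesterase Ces1d, a triglyceride hydrolase, rose by 1.44 (SE 0.37, adjusted p = 0.00193) with WY14643. Mgll, which splits monoacylglycerol, rose by 1.33 with WY14643, and the droplet protein Hsd17b11, Ces1f, Dgat2, Lipa, Pcyt1a, Ubxn2a and Acsl3, the last of them low in both groups, were also called.

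In PPARα −/− mice the same list gave no call with the agonists. With C22:6, where 6.67% of all genes rose and 9.35% fell, Ubxn2a rose by 0.36 (SE 0.09, adjusted p = 0.00421) while Ces1d fell by 1.07 (SE 0.31, adjusted p = 0.0137) and Ces1f by 0.76 (SE 0.20, adjusted p = 0.00686). With C18:3, where 5.03% of all genes fell, Ces1g fell by 1.33 (SE 0.45, adjusted p = 0.042) and Bscl2 by 0.34 (SE 0.11, adjusted p = 0.0421). Ces1d thus changed in opposite directions with C22:6 in the genotypes, and the difference was called (−2.22, SE 0.47, adjusted p = 0.00217). In untreated livers Fitm2, Hsd17b11 and Mgll were lower in PPARα −/− mice in both runs, Fitm2 by −1.69 (SE 0.19) and −1.73 (SE 0.18), and Tm6sf2 and Ubxn2a in the first run only.

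Over the 20 group means, each run centred on its own mean, the genes most like each member were Slc25a30 (Pearson r = 0.96), Slc22a5 (0.96) and Tgoln1 (0.96) for Plin2, and Pxmp4 (0.99), Eci2 (0.98) and Rusc2 (0.98) for Plin5. They were Tmem120a (0.96), Pus10 (0.94) and Cct3 (0.94) for Cidec, and Il1rn (0.88), Cnnm4 (0.85) and Mtmr1 (0.85) for Hilpda. For G0s2 they were Paqr7 (0.97), Chrna2 (0.97) and Mcrip2 (0.97), and for Pnpla2 Atp10d (0.97), Gpat3 (0.97) and Dot1l (0.96). Among the members themselves, Cidec and Pnpla2 were most alike (0.94) and Hilpda and Plin5 least (0.26). These correlations are over groups of the same arrays, and say nothing of how the genes are controlled.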

How the data were processed

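Liver RNA of single mice was hybridised to Affymetrix mouse genome arrays, and the deposited table holds 1 intensity per probeset and array on a linear scale, which the authors made with GCRMA 2.20 and, per their methods, quartile normalization. GC-RMA shrinks dim probesets strongly, which is why changes from low signals are given as bounds. The log2 of each intensity was used. The number of arrays limits the precision.

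The 11463 probesets of the table are as many as the paper reports after its own inter-quartile range filter. Shares of all genes are thus taken over genes of that selection. Of the 11463, 51 controls were left out, 10279 had 1 gene symbol in the platform annotation, 406 had several and 727 none. Probesets with an inter-quartile range of at least 0.25 over the 93 arrays (10432) were fitted in limma 3.58.1 (R 4.3.3) with 1 mean per group for 20 groups (73 residual degrees of freedom) and 40 contrasts, among them each treatment against its own control, the difference of that change between the genotypes, PPARα −/− against WT controls and pairs of compounds. Adjusted p-values are Benjamini-Hochberg over all fitted probesets. A gene with several probesets was represented by the one of highest mean signal. The genes named are all members, the 4 largest called agonist changes in WT mice and the called changes in PPARα −/− mice of a list of 30 other droplet and lipolysis genes, and the 3 genes most like each member; further genes of that list were named after their values were seen. Members and lists were chosen with earlier results of these data known. All samples were used, and mice rather than repeat arrays are the replicates.

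Replicate numbers in the labels were checked for pairing: a correlation above 0.1 in every pair was required, which of 16 comparisons only WY14643 in PPARα −/− mice met (r of 0.11 to 0.30 over 5 pairs). The fit was tested on simulated data first. Alternatives were other filters, scalings, variance models, array weights, fits of only the groups compared, a replicate block, the study's threshold of an unadjusted p under 0.01 and leaving out each mouse.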

Additional observations from a re-analysis of the deposited data

Results flagged for a closer look

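Some mice lay apart from their group. Each set tested held the values of 1 probeset in 1 group of 4 or 5 mice. The same mice recur over the 7 probesets, so the sets were not independent. Of 133 sets, 9 had a highest or lowest mouse farther from its neighbour than Dixon's limit allows, where chance gives about 1 in 20. Among PPARα −/− mice these were C18:2 mouse 4 for Cidec (3.90) and Plin5 (1424937_at, 6.95), C10:0 mouse 1 for Plin5 (1424937_at, 6.53), C18:3 mouse 5 for G0s2 (7.42) and control 1 of the first run for Hilpda (3.46). Among WT mice they were C18:3 mouse 4 for Plin5 (1441915_s_at, 9.28), C10:0 mouse 3 for G0s2 (10.67), later control 3 for G0s2 (10.67) and later control 1 for Plin2 (12.52). The Hilpda and Cidec values were low.

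The change under a treatment differed between the genotypes in 6 tests of the difference itself (PPARα −/− minus WT, log2). With WY14643 the differences were −3.03 for G0s2 and −1.31 for Pnpla2. Those of Cidec (adjusted p = 0.00013) and Hilpda (adjusted p = 7.01e-06; limma) were negative too, but 3 of their 4 groups were low and no size is given. For G0s2 it was also −2.28 with fenofibrate and −3.02 with C18:3.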

How the results depend on the processing

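Of 240 comparisons of a gene, 43 were called, and 14 calls held under every alternative and without any mouse. No call turned its direction. Of the values not called, 40 changed sign in some setting that did not call them either. Calls with a treatment numbered 10 of 48 in PPARα −/− mice and 14 of 48 in WT mice. In fits of only the groups compared they numbered 1 in PPARα −/− mice and 12 in WT mice, with 4 of 84 between compounds in place of 9 and 24 of 378 for the other droplet genes in place of 41 (this last list's alternatives were chosen after seeing the data). Such fits have fewer samples to estimate the spread. With array weights 27 were called in WT mice, and at an unadjusted p under 0.01 10 of 48 differences between the genotypes in place of 6. With the replicate block, counts were 0 in PPARα −/− mice, 7 in WT mice, 4 for the differences between the genotypes, 1 of 12 between controls in place of 4, 4 between compounds and 7 for the other genes; the shared numbers do not show that mice were paired, apart from WY14643 in PPARα −/− mice, where no member was called in either fit. Without single mice, calls numbered 7 to 11 in PPARα −/− mice, 12 to 16 in WT mice, 5 to 8 between the genotypes, 3 to 4 between controls, 7 to 11 between compounds and 27 to 44 for the other genes. Quantile normalization moved the median change of all genes by −0.04 to 0.04 and median centring by −0.04 to 0.05 (log2), depending on the comparison. Signals under the low level limit Hilpda, Cidec and, in PPARα −/− mice, Plin5 to bounds.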
